A study of Homo sapiens with 12 samples.

Results

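The genes described here are 40 that charge tRNAs with amino acids, make amino acids or carry them across membranes, followed in MM1S cells after blockade of N-glycosylation. They were taken by symbol from a list: 19 cytoplasmic tRNA synthetases, 13 enzymes of amino acid and one-carbon synthesis, and 8 amino acid carriers. All 40 were found among 59276 listed features, and all 40 were among the 11939 that passed a filter on low values (1 or more TPM in 3 or more libraries). MM1S is an established human cell line from multiple myeloma, a cancer of plasma cells, and NGI-1 is a small molecule that inhibits oligosaccharyltransferase, the enzyme complex that attaches N-glycans to new proteins in the endoplasmic reticulum. Total RNA was sequenced from untreated cells (day 0) and from cells kept with NGI-1 (10 μM) for 2, 3 or 5 days, with 3 libraries in each of these 4 groups. In the labels the day 0 libraries also carry NGI-1 as treatment, and these were taken as untreated because the paper calls them so. The labels do not say whether libraries of a group came from separate cultures, so p-values measure the spread between these libraries, which may be technical. All cells are of 1 line, and no group was untreated at days 2 to 5, so treatment and time in culture cannot be told apart.

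Each tRNA synthetase joins 1 amino acid to its tRNAs before the ribosome can use it, and several sit together in a multi-synthetase complex. Carriers such as the large neutral amino acid exchanger SLC3A2–SLC7A5 bring essential amino acids in, while enzymes such as ASNS and PHGDH make non-essential ones. Many of these genes are known targets of ATF4, a transcription factor whose protein is made when the kinases of the integrated stress response phosphorylate eIF2. Plasma cells secrete large amounts of glycoprotein and have a high demand for amino acids.

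Values were deposited as log2(TPM + 1), where TPM is a transcript's share of its library, corrected for length, on a scale with a fixed total. To be called higher or lower, a gene needed an adjusted p (limma, Benjamini-Hochberg) under 0.05 together with a change of more than 0.5 log2 units. The median of all tested features moved by -0.18 at day 2, -0.73 at day 3 and -0.99 at day 5 on the log2 scale, so most features lost share. Most changes of the 40 genes, but few of other genes, are therefore also given on rescaled libraries. There, 1 factor per library aligns the median of features with a mean of at least 10 TPM. Those factors were 1.489 to 1.505 in the untreated libraries, 1.26 to 1.30 at day 2, 0.768 to 0.891 at day 3 and 0.573 to 0.738 at day 5. In day 3 library 2 and day 5 library 3, which had the highest factor of their groups, 38 of the 40 genes each had the highest TPM of the group. TPM keeps no counts, so precision was read from the spread between libraries, and fewer cells of a type and less RNA per cell cannot be told apart in such bulk samples. All 8 plasma cell markers were present in every library (at least 14.9 TPM), while of 8 markers of other cell types CD3E reached 7.22 TPM, PECAM1 8.09 TPM and the others at most 1.14 TPM.

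The 40 genes had a combined share of the RNA at day 2 close to that of untreated cells, and lower sums at days 3 and 5. Their summed level was 4108 ± 106 TPM (SD, n = 3) in untreated cells, 4153 ± 70.4 TPM at day 2, 2366 ± 221 TPM at day 3 and 2081 ± 362 TPM at day 5. The day 2 total joined opposite moves. From untreated to day 2 the synthetases went from 2500 to 2165 TPM, the enzymes from 927 to 994 and the carriers from 681 to 994. Among the carriers, SLC3A2 was at 3.48 times its untreated mean. At day 2, 7 genes were lower and 4 higher, against 23.2% lower and 8.04% higher of all tested features. At day 3, 32 were lower and only SLC3A2 higher, against 61.5% and 7.59%. At day 5, 34 were lower and again only SLC3A2 was higher, against 69.8% and 7.73%. Without day 3 library 2 the day 3 counts were 34 lower and 1 higher, and without day 5 library 3 the day 5 counts were 35 lower and 1 higher. Other libraries moved the counts the other way. Without day 3 library 3, TARS1 and PSAT1 lost their lower calls at day 3. Without day 5 library 1, CARS1 and PSAT1 lost theirs at day 5.

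On rescaled libraries the genes divided. At day 2, 9 genes had gained level and 3 had lost it (12.9% and 11.4% of all features). By day 3 the gains numbered 5 and the losses 12 (23.9% and 24.2%). By day 5 there were 8 gains beside 13 losses (27.5% and 26.9%). The median change of the 40 genes was -0.06, -1.02 and -1.25 as deposited and 0.16, -0.16 and -0.07 rescaled at days 2, 3 and 5. The treated groups share the untreated libraries, so the days are given side by side.

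**Figure D1:**
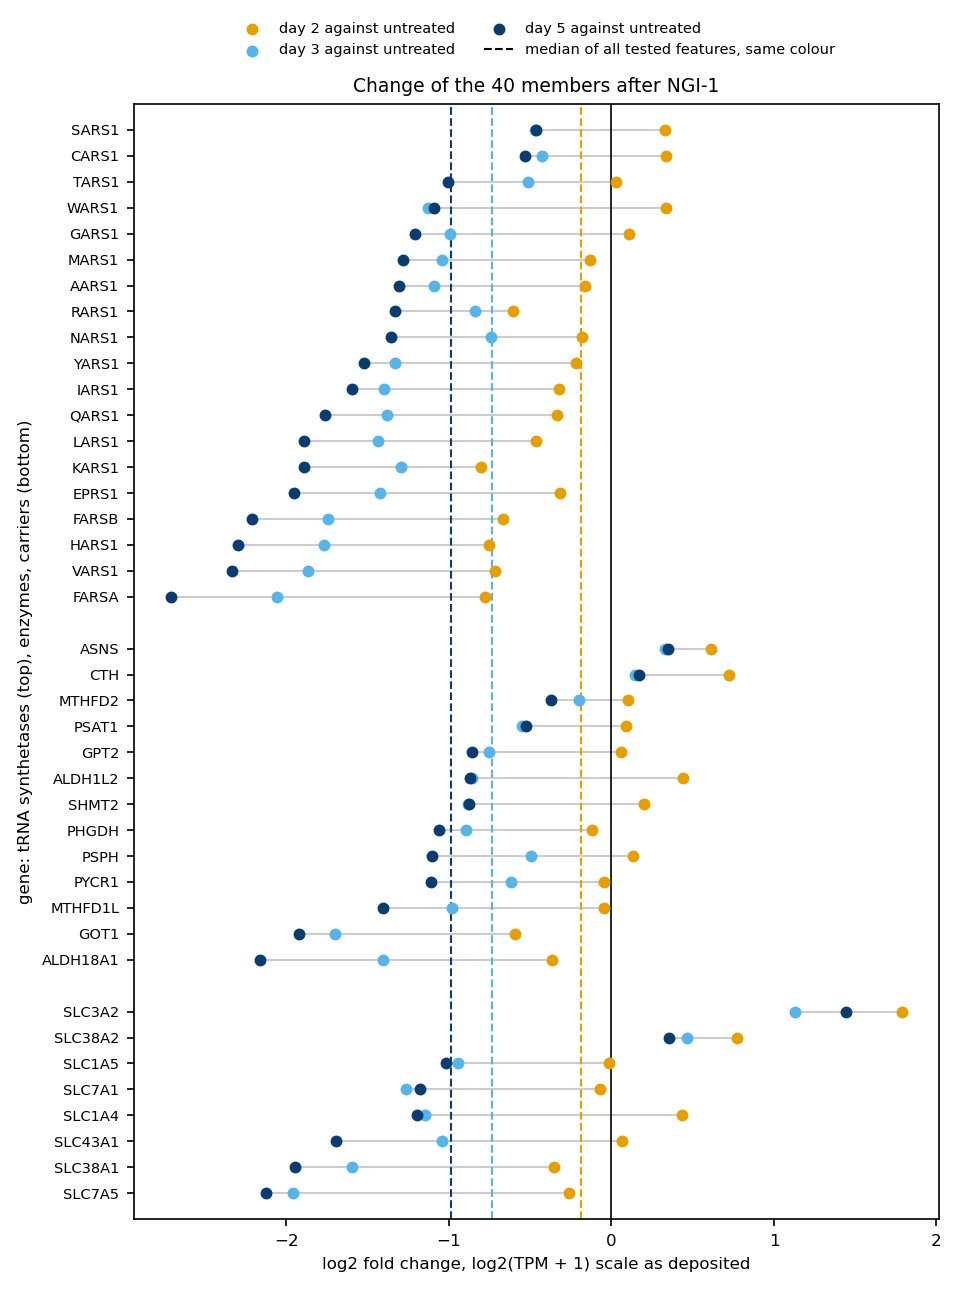
Log2 fold change of each of the 40 genes on the deposited scale (x axis) at days 2, 3 and 5 against untreated (points in 3 colours), with genes on the y axis by role, and dashed lines at the median of all tested features for each day. Most day 3 and day 5 points lie left of 0, and SLC3A2 lies right of 1 on all days.

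Nearly all tRNA synthetases fell at days 3 and 5 on the deposited scale. Of 19, 6 were lower at day 2, 17 at day 3 and 18 at day 5, with medians of -0.32, -1.29 and -1.52, and their summed level went from 2500 ± 67.4 TPM (SD, n = 3) to 2165 ± 53.8, 1174 ± 127 and 913 ± 171 TPM. As shares of the 19 these lower calls were 31.6%, 89.5% and 94.7%, where 23.2%, 61.5% and 69.8% of all tested features were lower. In limma 0 were called higher on any day, and at an unadjusted p under 0.05 there were 2 higher at day 2, then 0 on either later day. Rescaling left 3 lower calls and gave 3 higher calls at day 2, left 8 lower calls by day 3, and by day 5 left 8 lower calls beside 2 higher ones (SARS1 and CARS1). Those lower calls made up 15.8%, 42.1% and 42.1% of the 19, beside 11.4%, 24.2% and 26.9% of all features. The 8 of day 5 were FARSA and FARSB for phenylalanine, HARS1 for histidine (-2.30, -1.13 rescaled), VARS1 for valine, KARS1 for lysine (-1.89, -0.69 rescaled), LARS1 for leucine, QARS1 for glutamine and EPRS1 for glutamate and proline (-1.95, -0.74 rescaled). The call of QARS1 was lost without untreated library 1. At day 3 the 8 held IARS1 for isoleucine (-0.55 rescaled, lost without day 3 library 1) in place of KARS1 (-0.44, not called). The day 3 call of QARS1 (-0.53 rescaled) was lost without untreated library 1, day 3 library 1 or day 3 library 3. NARS1, which charges asparagine tRNA, was the most abundant of the 40 genes in untreated cells at 463 ± 14.5 TPM (SD, n = 3), ahead of SLC1A5 at 222 ± 10.999 TPM; MTHFD2 (192 ± 16.1 TPM) and GARS1 (192 ± 7.96 TPM) followed and did not differ beyond their spread.

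FARSA, the alpha subunit of the phenylalanine enzyme, had the largest fall among the synthetases. It stood at 209.8, 167 and 180.3 TPM in the untreated libraries, 112, 114 and 97.3 TPM at day 2, 35.7, 52.7 and 44.4 TPM at day 3 and 23.9, 24.9 and 34.2 TPM at day 5. Every library of a later day lay below every library of the day before. The change was -0.78 ± 0.15 (SE) at day 2, -2.05 ± 0.15 (SE) at day 3 and -2.71 ± 0.15 (SE) at day 5, with an adjusted p of 1.63e-09 at day 5, and it was also lower on rescaled libraries at -0.55, -1.20 and -1.51. The rescaled call at day 2 was lost without untreated library 1 or day 2 library 3. VARS1, the valine enzyme and a class I synthetase, was measured at 156, 129 and 137 TPM in the untreated libraries, 81.6, 84.5 and 88.4 TPM at day 2, 35.03, 43.2 and 35.2 TPM at day 3 and 24.2, 25.1 and 32.1 TPM at day 5. Its libraries did not overlap between neighbouring days, with a change of -2.34 ± 0.12 (SE) at day 5 (adjusted p 6.3e-10) and -1.13 rescaled.

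SARS1 and CARS1, the serine and cysteine enzymes, stood at the other end of the synthetases. SARS1 was measured at 106, 107 and 103 TPM in the untreated libraries, 129, 137 and 132 TPM at day 2, 71.7, 88.7 and 68.4 TPM at day 3 and 66.6, 69.6 and 95.3 TPM at day 5. All day 2 libraries lay above, and all later libraries below, the untreated ones. No change of SARS1 against untreated was called as deposited, with 0.33 ± 0.13 (SE) at day 2 and -0.46 ± 0.13 (SE) at day 5. The day 5 sign turned on rescaled libraries, to 0.75 ± 0.07 (SE) with an adjusted p of 9.89e-07. CARS1 was measured at 48.6, 51.5 and 50.1 TPM in the untreated libraries, 62.3, 63.9 and 64.03 TPM at day 2, 34.1, 40.7 and 36.3 TPM at day 3 and 31.3, 33.7 and 38.4 TPM at day 5. It was called lower at day 5 as deposited (-0.53 ± 0.09 (SE), adjusted p 0.000121) and higher on rescaled libraries (0.67 ± 0.07 (SE), adjusted p 1.29e-06). Without day 5 library 1 the lower call of CARS1 was lost, and without day 5 library 3 SARS1 was called lower as deposited. WARS1, the tryptophan enzyme, which interferon induces, was measured at 129, 119 and 116 TPM in the untreated libraries, 138, 166 and 156 TPM at day 2, 51.2, 66.2 and 48.3 TPM at day 3 and 48.1, 49.2 and 75.1 TPM at day 5. It fell by 1.13 at day 3 and by 1.09 at day 5, but on rescaled libraries it was called higher at day 2 (0.56) and not called at days 3 (-0.27) and 5 (0.12). The day 2 value of WARS1 as deposited (0.34 ± 0.16 (SE)) was not called. On that scale 9 of 11 interferon genes were called higher at day 2, 9 at day 3 and 8 at day 5, against 8.04%, 7.59% and 7.73% of all features. Of the 11, 2 were called lower at day 3 and 2 at day 5. WARS1 was called lower at days 3 and 5 on that scale, and a part of interferon in its values was not tested.

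Among the 13 synthesis enzymes, 2 rose and 1 fell at day 2, 9 fell at day 3 and 10 fell at day 5, while rescaling gave 3 higher calls at day 2, 3 higher and 2 lower calls by day 3, and 4 higher and 2 lower calls by day 5. The enzymes' deposited lower calls at days 3 and 5, 69.2% and 76.9%, were near the 61.5% and 69.8% of all features. Their rescaled higher calls at days 2, 3 and 5 were 23.1%, 23.1% and 30.8%, beside 12.9%, 23.9% and 27.5% of all features. Their rescaled lower calls were 0%, 15.4% and 15.4%, beside 11.4%, 24.2% and 26.9%. ASNS, which makes asparagine from aspartate and glutamine, stood at 86.8, 99.1 and 90.4 TPM in the untreated libraries, 140.0, 141 and 143 TPM at day 2, 116, 119 and 114 TPM at day 3 and 111, 112 and 131 TPM at day 5. Every treated library lay above every untreated one. The rise was 0.61 ± 0.08 (SE) at day 2 (adjusted p 5.08e-05), and the later values of 0.33 ± 0.08 (SE) and 0.35 ± 0.08 (SE) had an adjusted p of 0.00208 and 0.00123 but were under the fold threshold. On rescaled libraries ASNS was called higher on all 3 days, at 0.84, 1.19 and 1.56. CTH, cystathionine gamma-lyase of cysteine synthesis and the least abundant of the 40 genes in untreated cells, stood at 3.21, 3.33 and 2.82 TPM in the untreated libraries, 5.72, 5.81 and 5.86 TPM at day 2, 3.29, 4.36 and 3.11 TPM at day 3 and 3.24, 3.43 and 4.29 TPM at day 5. Its day 2 libraries lay together above all others, with a change of 0.72 ± 0.14 (SE) (adjusted p 0.000785), while days 3 and 5 overlapped the untreated libraries in level and were not called (0.15 and 0.17, and 0.79 and 1.11 rescaled and called higher). CTH transcripts are at a few TPM, so the pseudocount of 1 pulls its fold change toward 0.

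The 3 serine synthesis enzymes had changes between -0.12 and 0.13 at day 2, and all were called lower at day 5 on the deposited scale, where each had a rescaled value above 0. PSAT1, the aminotransferase, was measured at 82.9, 87.1 and 84.7 TPM in the untreated libraries, 91.6, 87.4 and 92.7 TPM at day 2, 54.9, 66.02 and 52.98 TPM at day 3 and 48.9, 55.4 and 74.5 TPM at day 5. It was called lower at day 5 (-0.52 ± 0.13 (SE), adjusted p 0.00184) and higher on rescaled libraries (0.68 ± 0.08 (SE), adjusted p 3.37e-06). The lower call was lost without day 5 library 1 or library 2. PSPH, the phosphatase that ends the pathway, was measured at 58.5, 56.8 and 62.9 TPM in the untreated libraries, 67.97, 63.7 and 64.03 TPM at day 2, 43.04, 45.3 and 37.7 TPM at day 3 and 23.95, 28.7 and 28.7 TPM at day 5. Its fall of -1.11 ± 0.10 (SE) at day 5 (adjusted p 1.34e-07) was not called on rescaled libraries, where the value was 0.09. PHGDH, the first enzyme, was at -1.06 at day 5 and 0.14 rescaled.

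Of the 4 mitochondrial one-carbon enzymes, MTHFD2 had the smallest change at day 5 as deposited and the largest on rescaled libraries. MTHFD2, the methylene-tetrahydrofolate dehydrogenase that is high in dividing cells, was measured at 177, 209 and 189 TPM in the untreated libraries, 216, 197 and 205 TPM at day 2, 175, 168 and 158 TPM at day 3 and 134, 162 and 149.6 TPM at day 5. Day 2 overlapped the untreated libraries and day 5 lay below them, the change at day 5 being -0.37 ± 0.09 (SE), not called, and 0.85 ± 0.10 (SE) and called higher on rescaled libraries (adjusted p 4.66e-06). MTHFD1L, the formate-producing enzyme, was measured at 40.9, 44.4 and 42.8 TPM in the untreated libraries, 43.8, 38.1 and 42.1 TPM at day 2, 21.6, 24.5 and 17.9 TPM at day 3 and 13.97, 12.98 and 20.3 TPM at day 5. It fell by 1.41 at day 5 (adjusted p 8.47e-07), and its rescaled value of -0.23 was not called. ALDH18A1, which starts proline synthesis, and GOT1, the cytosolic aspartate aminotransferase, had the largest falls of the enzymes. ALDH18A1 was measured at 54.6, 55.1 and 49.8 TPM in the untreated libraries, 39.7, 44.3 and 39.02 TPM at day 2, 17.7, 22.8 and 18.1 TPM at day 3 and 9.61, 10.3 and 13.6 TPM at day 5. It was at -2.17 ± 0.13 (SE) at day 5 and -0.997 rescaled, lower by both. GOT1 was measured at 55.6, 55.5 and 55.6 TPM in the untreated libraries, 35.6, 38.1 and 35.7 TPM at day 2, 15.9, 19.02 and 14.6 TPM at day 3 and 12.002, 12.8 and 17.5 TPM at day 5. It was at -1.92 ± 0.13 (SE) at day 5 and -0.74 rescaled, lower by both.

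The 8 carriers held the largest rise of the 40 genes, that of SLC3A2, and at days 3 and 5 the fall of its partner SLC7A5. SLC3A2, the heavy chain (CD98) that takes several light-chain transporters to the cell surface, stood at 125, 123 and 123 TPM in the untreated libraries, 451, 436 and 406 TPM at day 2, 263, 293 and 260.2 TPM at day 3 and 298, 309 and 422 TPM at day 5. All treated libraries lay above all untreated ones. The rise was 1.79 ± 0.11 (SE) at day 2, 1.13 ± 0.11 (SE) at day 3 and 1.44 ± 0.11 (SE) at day 5 (adjusted p 5.89e-08, 6.31e-07 and 2.99e-08), and 2.02, 1.99 and 2.66 on rescaled libraries.

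SLC7A5 (LAT1), its partner light chain for leucine and other large neutral amino acids, stood at 118, 108 and 104 TPM in the untreated libraries, 93.8, 98.8 and 82.98 TPM at day 2, 22.2, 37.9 and 24.8 TPM at day 3 and 19.8, 21.6 and 34.2 TPM at day 5. Day 2 lay just under the untreated libraries and was not called (-0.26 ± 0.20 (SE), adjusted p 0.303). The fall was -1.96 ± 0.20 (SE) at day 3 and -2.12 ± 0.20 (SE) at day 5 (adjusted p 8.76e-07 and 2.24e-07), with rescaled values of -1.11 and -0.92, both called lower.

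SLC38A2 (SNAT2), a sodium-coupled carrier of small neutral amino acids, stood at 49.9, 55.96 and 46.5 TPM in the untreated libraries, 92.3, 79.5 and 90.1 TPM at day 2, 73.6, 74.5 and 63.2 TPM at day 3 and 54.5, 63.02 and 80.3 TPM at day 5. Its day 2 libraries were all above the untreated ones, while 1 of the 3 day 5 libraries lay within their range. The rise was called at day 2 (0.77 ± 0.13 (SE), adjusted p 0.000351). Later values of 0.46 and 0.36 were under the fold threshold, and on rescaled libraries it was called higher on all days (0.99, 1.32 and 1.56). Without untreated library 2 or day 3 library 3, SLC38A2 was also called higher at day 3 as deposited. Its relative SLC38A1 went the other way, at -1.95 at day 5 and -0.75 rescaled, called lower by both. SLC43A1, a further leucine carrier, was at -1.70 and -0.56, also lower by both, whereas SLC1A5, SLC1A4 and SLC7A1 were called lower at day 5 only as deposited (-1.02, -1.20 and -1.18), with rescaled values of 0.20, -0.03 and -0.07.

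**Figure D2:**
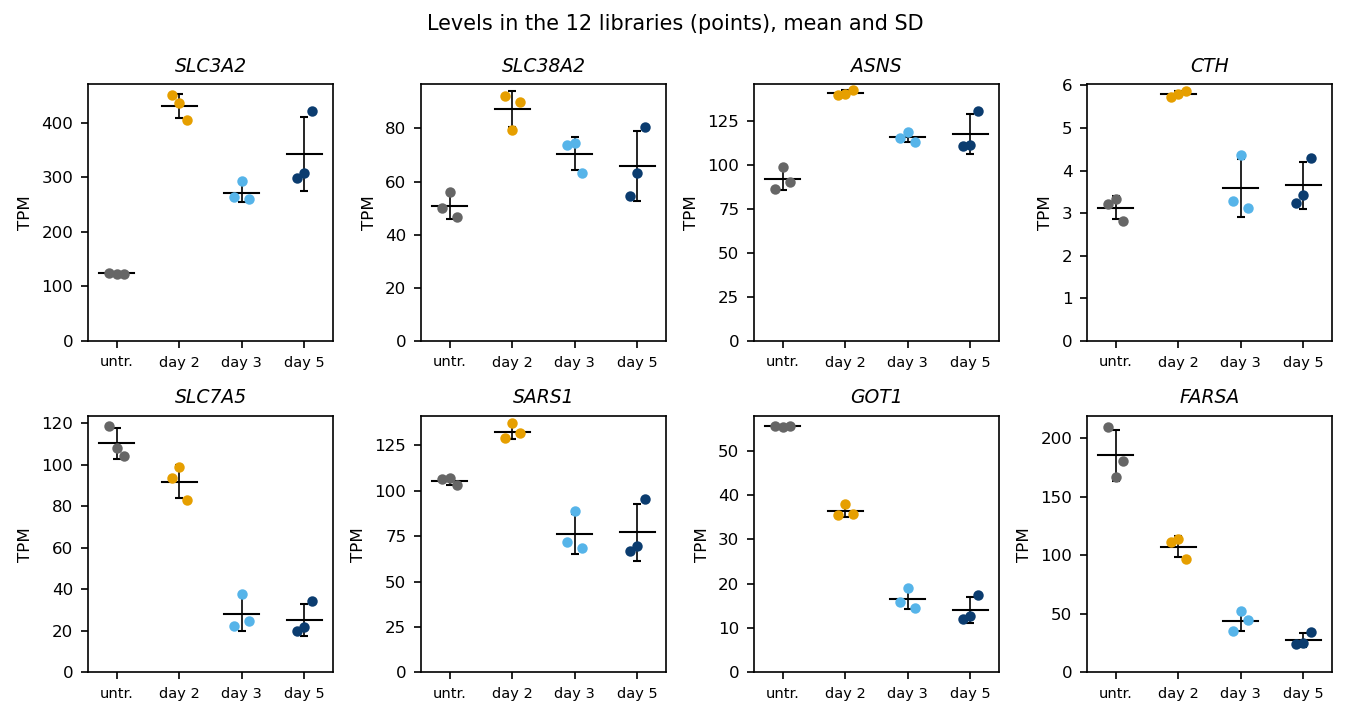
TPM (y axis, from 0) in each of the 12 libraries (points) for 8 genes, by group on the x axis, with the mean (line) and SD (bar) of 3 libraries. SLC3A2, SLC38A2, ASNS and CTH have their highest group mean at day 2, and SLC7A5, GOT1 and FARSA drop steeply by day 3.

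The ratio of SLC3A2 to SLC7A5 within a library does not depend on the library factor, and it was examined after the values had been seen. It was 1.06, 1.14 and 1.18 in the untreated libraries, 4.81, 4.41 and 4.89 at day 2, then 11.8, 7.72 and 10.5 after 3 days and 15.1, 14.3 and 12.3 after 5 days. No group overlapped another. Against the sum of 5 light chains (SLC7A5, SLC7A6, SLC7A7, SLC7A8 and SLC7A11) the mean ratio of SLC3A2 was 0.943 ± 0.0386 (SD, n = 3) untreated, 3.97 ± 0.288 at day 2, 8.29 ± 1.54 at day 3 and 11.6 ± 0.986 at day 5. FARSA and FARSB, the 2 subunits of 1 enzyme, had a mean ratio of 6.24 ± 0.733, 5.85 ± 0.508, 5.39 ± 0.859 and 4.89 ± 0.524 across the same groups, with overlapping libraries. AIMP1 and AIMP2, scaffold proteins of the multi-synthetase complex, went from 1.36 ± 0.0908 to 2.30 ± 0.270, 5.82 ± 1.23 and 8.89 ± 1.40.

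**Figure D3:**
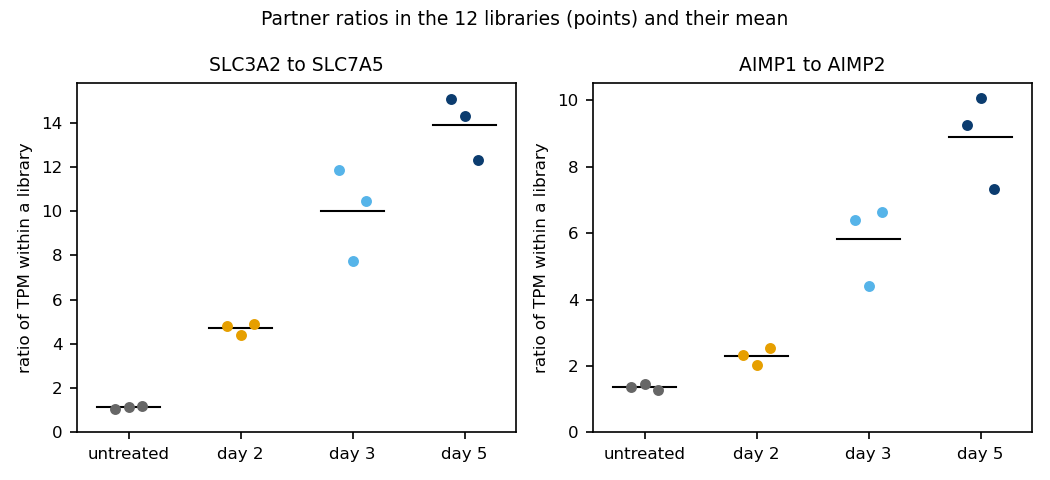
Ratio of TPM within a library (y axis, from 0) for SLC3A2 to SLC7A5 and for AIMP1 to AIMP2, by group on the x axis, with points for the 12 libraries and a line at each mean. Both ratios have their highest mean at day 5 (13.9 and 8.89).

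Most of the genes fell between day 2 and day 3 on the deposited scale. Against day 2, 35 of the 40 genes were lower at day 3 (55.5% of all features lower and 3.22% higher), and in limma 0 were higher, with 0 higher and 40 lower at an unadjusted p under 0.05. SLC3A2 was among the 35, at -0.66 ± 0.11 (SE), with a rescaled value of -0.03 that was not called. On rescaled libraries 9 were lower (13.6% lower and 14.3% higher of all features): FARSA, VARS1, WARS1, ALDH1L2, SLC7A5, SLC7A1, SLC1A4, SLC38A1 and SLC43A1. This count was 16 without day 3 library 2 and 6 without day 3 library 1. From day 3 to day 5, 8 genes (EPRS1, FARSA, HARS1, KARS1, NARS1, PSPH, ALDH18A1 and SLC43A1) were lower (13.1% of all features lower and 0.670% higher), and in limma 0 were higher, with 1 higher at an unadjusted p under 0.05. On rescaled libraries (2.03% lower and 4.43% higher) SLC3A2 was the only gene called, higher by 0.67 with an adjusted p of 0.00016. The count of 8 was 6 without day 5 library 1 or day 3 library 2, 14 without day 3 library 3 and 15 without day 5 library 3.

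For 9 genes, all day 2 libraries lay above and all day 5 libraries below every untreated library: CARS1, GARS1, SARS1, WARS1, PSAT1, PSPH, SHMT2, ALDH1L2 and SLC1A4. The same held for 5.93% of all tested features. None of the 9 was called higher at day 2 on the deposited scale, where their changes ran from 0.09 for PSAT1 to 0.44 for ALDH1L2. On rescaled libraries 5 of the 9 (CARS1, SARS1, WARS1, ALDH1L2 and SLC1A4) were called higher at day 2, while at day 5 the calls were CARS1, SARS1 and PSAT1, each higher than untreated. Of all features, 12.9% were higher at day 2 and 27.5% at day 5 on that scale.

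**Figure D4:**
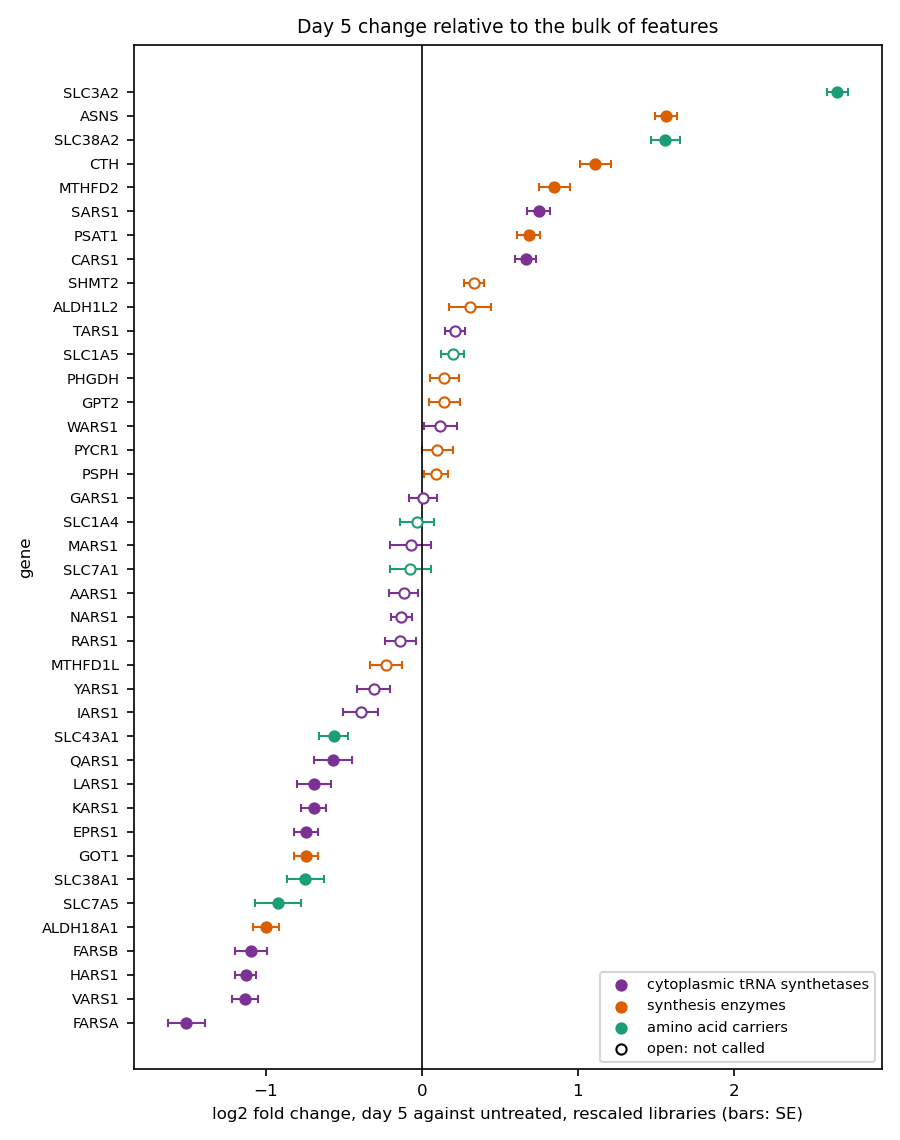
Log2 fold change at day 5 against untreated on rescaled libraries (x axis) with SE bars, for the 40 genes on the y axis in order of the value, coloured by role, with filled points for called genes. SLC3A2, ASNS, SLC38A2 and CTH lead at the top and FARSA, VARS1, HARS1 and FARSB stand at the bottom.

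The promoters were searched for the core of the C/EBP-ATF response element, the DNA element bound by ATF4 dimers, written TGATGNAA and as TTNCATCA on the other strand. RefSeq promoters on GRCh38.p14, from 250 bases before to 50 after the start, were matched by symbol for 32 of the 40 genes. The motif was present in 15 of them (46.9%), among them 7 of 16 synthetases, 5 of 8 carriers and 3 of 8 synthesis enzymes, against 4.46% of 27305 genes. Those 15 genes had median changes of -0.05, -0.99 and -1.21 at days 2, 3 and 5. The 17 without it had -0.26, -1.13 and -1.70. On rescaled libraries at day 5, 2 of 15 were lower and 3 higher, against 9 of 17 lower and 5 higher. Of all features, 26.9% were lower and 27.5% higher there. Rescaled higher calls were 4 of 15 and 4 of 17 at day 2, and 2 of 15 and 3 of 17 at day 3. Rescaled lower calls were 0 and 3 at day 2, and 3 and 7 at day 3. Of all features, 12.9% were higher and 11.4% lower at day 2 on that scale, and 23.9% and 24.2% at day 3. A part of the motif in these changes was not tested. A match is only a description of the sequence. The motif (in capitals) with up to 10 bases on each side is shown 5′ to 3′ on the gene's strand for the 5 motif-bearing genes that were called at day 5 on rescaled libraries, first the 3 that were higher (ASNS, SLC3A2 and CARS1) and then the 2 that were lower (GOT1 and SLC38A1). They lie at chr7:97872459-97872486, minus strand (ASNS, upstream of the start), chr11:62881726-62881748, plus strand (SLC3A2, after the start, cut short by the end of the window), chr11:3057408-3057435, minus strand (CARS1, across the start), chr10:99430805-99430832, minus strand (GOT1, upstream) and chr12:46266503-46266530, minus strand (SLC38A1, across the start).
ASNS: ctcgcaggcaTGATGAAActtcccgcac
SLC3A2: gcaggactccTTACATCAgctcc
CARS1: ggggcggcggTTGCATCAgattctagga
GOT1: attgcattggTTGCATCAttctcggcag
SLC38A1: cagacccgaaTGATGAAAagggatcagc

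The ASNS element lies 68 bases upstream of the start, and 100 bases of that promoter (chr7:97872419-97872518, minus strand, GRCh38.p14) are shown because ASNS was among the genes with the largest rise on rescaled libraries at day 5.
ASNS promoter: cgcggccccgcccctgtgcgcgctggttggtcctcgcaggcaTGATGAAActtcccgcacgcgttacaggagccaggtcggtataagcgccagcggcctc

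Other genes of the same pathways were read beside them, with changes as deposited unless stated. Of all tested features, 23.2%, 61.5% and 69.8% were lower as deposited at days 2, 3 and 5. On rescaled libraries 26.9% of them were lower and 27.5% higher at day 5. Of 17 mitochondrial tRNA synthetases, 9 were lower at day 2 (52.9%), 15 at day 3 (88.2%) and 16 at day 5 (94.1%). On rescaled libraries 11 were lower (64.7%) and 1 higher (5.88%) at day 5. Of 18 folate and methionine cycle genes tested, 15 were lower at day 5 (83.3%), and CBS was higher at day 2 (0.60 ± 0.14 (SE), adjusted p 0.00396). Among 14 other amino acid enzymes tested, ASS1, argininosuccinate synthase, was higher on all days (1.34, 0.85 and 1.003), GLUL, glutamine synthetase, was higher at day 2 (0.95), and BCAT2 fell by 2.37 at day 5.

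Among 14 other carriers tested, 9 were lower (64.3%) and 1 higher (7.14%) at day 5 as deposited, near the 69.8% and 7.73% of all features. On rescaled libraries 7 were lower (50%) and 5 higher (35.7%) at day 5, beside 26.9% and 27.5%. As deposited, SLC6A9, a glycine transporter, was higher on all days (1.62, 0.75 and 1.02), SLC7A7 was higher at days 2 and 3 (0.99 and 0.57), and SLC43A3 had the largest fall at -3.70. Of the 5 other multi-synthetase complex genes, AIMP1 was higher at days 3 and 5 (0.57 and 0.61, adjusted p 8.46e-05) and AIMP2 fell to -1.96. Of 16 genes of the eIF2 kinases and the ATF4 branch tested, 5 were higher at day 2 (8.04% of all features): ATF3, DDIT3, EIF2AK2, EIF2AK3 and PPP1R15A. GCN1, which activates the eIF2 kinase GCN2, had the largest fall of that list at day 5 (-2.11). DDIT3 (CHOP), a transcription factor of the stress response, was at 1.13, 1.005 and 1.86 with an adjusted p of 3.16e-09 at day 5. ATF4 itself was not called as deposited (0.43, 0.11 and 0.12) and was called higher on rescaled libraries (0.66, 0.98 and 1.34). At day 5, 8 of the 16 were lower (50%) and 2 higher (12.5%), beside 69.8% and 7.73% of all features. On rescaled libraries 3 were lower (18.75%) and 11 higher (68.75%), beside 26.9% and 27.5%. Of 11 interferon genes, 9 were higher at days 2 and 3 and 8 at day 5, beside 8.04%, 7.59% and 7.73% of all features. At days 3 and 5, 2 of the 11 were lower.

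Of the pseudogenes of these genes in the table, ASNSP1 alone reached a mean of 1 TPM in a group, at 1.39 TPM at day 5 against 0.328 TPM untreated. Reads can be shared between such copies, and its level was small beside that of ASNS.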

How the data were processed

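MM1S total RNA libraries (3 per group) were read from 1 table of log2(TPM + 1) values that the authors deposited, listed by gene symbol. The submitters' processing notes name FastQC, Trimmomatic, STAR and Salmon and the build hg38; the annotation is not given in the sources used here. A linear model with 1 mean per group was fitted with limma 3.58.1 in R 4.3.3 (mean-variance trend, two-sided moderated tests, Benjamini-Hochberg adjustment within a contrast) to the 11939 features that reached 1 TPM in 3 or more libraries. For rescaled libraries, TPM was divided by 1 factor per library that centred the median log2 ratio of features with a mean of at least 10 TPM, and log2(TPM + 1) was refitted. The procedure was tested on simulated data. The genes and lists were chosen with earlier results of these data known. Every library's value is given for the largest rise and fall of each role at day 5 and for genes called higher on any day; WARS1 was added after its values were seen. Genes of other lists are named if called higher on any day or with the largest fall at day 5, and interferon and marker genes are given as counts. Some genes that this rule names are not reported here. Alternatives were rescaling, other filters, a pseudocount of 0.1, pairwise fits, no trend, leaving out the 20 most abundant features, a fold threshold of 1 and leaving out each library. Promoters came from RefSeq (GRCh38.p14), and figures were drawn with matplotlib 3.10.9.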

Additional observations from a re-analysis of the deposited data

Results flagged for a closer look

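The change from untreated differed between days, which was tested as the contrast of the days themselves (limma, Benjamini-Hochberg). From day 2 to day 3, 35 of the 40 genes were lower (55.5% of all features), and 9 were on rescaled libraries (13.6% of all features). From day 3 to day 5, 8 were lower (13.1% of all features), and on rescaled libraries 1 gene, SLC3A2, was higher (4.43% of all features). For 9 genes all day 2 libraries lay above and all day 5 libraries below every untreated library, as for 5.93% of all features. That is a pattern of the deposited scale that was not tested as such. On rescaled libraries 3 of the 9 were higher than untreated at day 5 (27.5% of all features), and 1, SLC1A4, was called lower at day 5 than at day 2. The share of all features that lost level also differed between these days, and its part in these differences was not tested.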

How the results depend on the processing

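No paired analysis was possible because the labels carry no replicate numbers, and the library numbers used here follow accession order and pair nothing. Counts of the 40 genes kept within 1.5 times their size with a pseudocount of 0.1, a minimum of 5 TPM, no filter, pairwise fits and no mean-variance trend. On rescaled libraries the calls against untreated were 9 higher and 3 lower (day 2), 5 higher and 12 lower (day 3) and 8 higher and 13 lower (day 5), 9 lower at day 3 against day 2, and 0 lower and 1 higher at day 5 against day 3 (limma, with 8 lower and 13 higher at an unadjusted p under 0.05). With a fold threshold of 1, 0 were lower and 1 higher at day 2, 20 were lower at day 3, 19 were lower at day 3 against day 2 and 0 at day 5 against day 3. Without the 20 most abundant features 3 were higher at day 3 and 3 at day 5. On rescaled libraries the sign turned from negative to positive for 9, 9 and 14 of the 40 genes at days 2, 3 and 5 against untreated, for 8 at day 3 against day 2 and for 15 at day 5 against day 3, since rescaling by construction raises later against earlier groups, by less for genes of low TPM. For the neighbouring days, genes are named here only among the 15 whose values are given for every library by the naming rule. For day 2 against untreated these were AARS1 (0.066), MARS1 (0.10), NARS1 (0.049), YARS1 (0.013), PHGDH (0.11), MTHFD1L (0.18), PYCR1 (0.18), SLC7A1 (0.14) and SLC1A5 (0.22). For day 3 against untreated these were CARS1 (0.42), NARS1 (0.12), RARS1 (0.0071), SARS1 (0.39), TARS1 (0.35), PSAT1 (0.31), PSPH (0.36), MTHFD2 (0.67) and PYCR1 (0.24). For day 5 against untreated these were CARS1 (0.67), GARS1 (0.0067), SARS1 (0.75), TARS1 (0.21), WARS1 (0.12), PHGDH (0.14), PSAT1 (0.68), PSPH (0.090), SHMT2 (0.33), MTHFD2 (0.85), ALDH1L2 (0.31), PYCR1 (0.10), GPT2 (0.14) and SLC1A5 (0.20). For day 3 against day 2, ASNS (0.35), MTHFD2 (0.33) and SLC38A2 (0.32) were among them. For day 5 against day 3, CARS1 (0.25), MTHFD2 (0.18), GOT1 (0.12), SLC7A5 (0.18) and SLC38A2 (0.25) were among them. Without the 20 most abundant features the sign turned for MTHFD1L (0.044), PYCR1 (0.045), SLC7A1 (0.018) and SLC1A5 (0.079) (day 2 against untreated) and for MTHFD2 (0.054) (day 3 against untreated), and the cause was not tested. Leaving out each library in turn gave counts of 1 to 2 higher at day 3 (2 without untreated library 2 or day 3 library 3) and 6 to 15 lower at day 5 against day 3 (14 without day 3 library 3 and 15 without day 5 library 3), and otherwise counts within 1.5 times. The sign turned in such fits for 5 of the 40 genes at day 2 against untreated and for 12 at day 5 against day 3, none of them called. These include, for day 2 against untreated, MTHFD1L (-0.090 to 0.0076), PYCR1 (-0.12 to 0.067), GPT2 (-0.013 to 0.14), SLC1A5 (-0.070 to 0.026), SLC43A1 (-0.0021 to 0.10) and, for day 5 against day 3, SARS1 (-0.15 to 0.12), ASNS (-0.060 to 0.060), PSAT1 (-0.15 to 0.15), CTH (-0.073 to 0.14), SLC7A5 (-0.40 to 0.057), SLC38A2 (-0.26 to 0.018). Rescaled libraries with each library left out, an alternative chosen after seeing the data, gave 9 higher and 1 to 4 lower calls for day 2 (1 without untreated library 1), 5 higher and 10 to 14 lower for day 3, 8 higher and 12 to 13 lower for day 5, 6 to 16 lower at day 3 against day 2, and 1 to 2 higher at day 5 against day 3 (2 without day 3 library 2). The deposited values hold no counts, so depth could not be weighed for single values.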
